A study of Homo sapiens with 22 samples.

Results

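The ATF2 and CHN1 joined model is a single gene model of the AceView form (ATF2andCHN1.uAug10) that spans 2 neighbouring protein-coding genes on the minus strand of chromosome 2. Its members are all exonic bins listed under that name, 35 of the 2635 bins in the table, and 1 of its 636 gene models. Exonic bins are the pieces left when the exons of a model are divided at each boundary that any of its transcripts uses. The members are also 35 of the 1029 bins that the table lists in models joining several genes. The bins were assigned to ATF2 (14 bins) or CHN1 (21 bins) by their hg19 coordinates, and no listed bin lies in the stretch between the 2 genes. The model was chosen with its values in these same comparisons known, so its values are given as a description and no test was made.

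The study used RNA-seq of HEK293T, an embryonic kidney cell line of human origin, in 12 libraries forming 6 groups of 2. The groups used here were HNRNPG knockdown KD1 and HNRNPG knockdown KD2, both set against the control of the HNRNPG series, and METTL3 knockdown and METTL14 knockdown, both set against the control of the Mettl series. The control cells are labelled wild type, and the means of knockdown and what sets KD1 apart from KD2 are not stated in the labels. KD1 and KD2 share their 2 control libraries, METTL3 and METTL14 knockdown share theirs, and the 10 PAR-CLIP libraries were not analysed here. Whether the paired libraries of a group are separate cultures is not stated either. All values are log2 ratios of exon usage, turned so that knockdown stands over control, and a positive value is higher usage in the knockdown. The table gives 1 value per bin and knockdown, with no value per library, so depth, replicate error and the level of each targeted RNA are unknown here, and neither the knockdowns nor the cell line could be checked by marker levels.

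ATF2 is a transcription factor of the basic leucine zipper class that binds cyclic AMP response elements, alone or paired with JUN, and the stress kinases JNK and p38 phosphorylate it. CHN1 encodes alpha-chimaerin, a GTPase-activating protein for Rac that binds diacylglycerol and phorbol esters and is known for its part in axon guidance. METTL3 and METTL14 are the partner subunits of the enzyme that places N6-methyladenosine (m6A) on RNA, and HNRNPG, encoded by RBMX, binds nuclear RNA and regulates splicing. The study addressed how splicing of m6A-containing genes responds to loss of HNRNPG and of the m6A writers. Exon usage is the signal of a bin relative to the rest of its gene model, so in a joined model it depends on the balance between the RNAs of both genes as well as on splicing. Between ATF2 bins and CHN1 bins these cannot be told apart from the values used here, and neither was tested.

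In the RefSeq gene table (GRCh38.p14) ATF2 and CHN1 are adjacent protein-coding genes, with 3 pseudogenes between them. On the minus strand ATF2 lies upstream, between ATP5MC3 and CHN1, and CHN1 lies between ATF2 and CHRNA1. The listed bins ran over 369 kb of hg19, chr2:175664290-176032852. The 14 ATF2 bins lay in chr2:175939233-176032852 with bin numbers 77 to 117, and the 21 CHN1 bins lay in chr2:175664290-175869955 with bin numbers 10 to 65. The stretch of 69.3 kb between them held no listed bin. ATF2 bins covered 1423 bp with a median length of 84 bp (8 to 331 bp), and CHN1 bins covered 1889 bp with a median of 56 bp (7 to 684 bp). Whether a bin is coding or untranslated was not analysed here.

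The RefSeq promoter table matched CHN1, at 2 start sites, and did not match ATF2. The 250 bases before the more upstream CHN1 start are shown because the most upstream CHN1 bin had the highest METTL3 and METTL14 values of the whole table. They lie at chr2:175005382-175005631 of GRCh38.p14 on the minus strand, and since the bins are in hg19 their place relative to this start was not determined. Capitals mark the motif GGGCGG, a binding motif of SP-family factors.
CHN1: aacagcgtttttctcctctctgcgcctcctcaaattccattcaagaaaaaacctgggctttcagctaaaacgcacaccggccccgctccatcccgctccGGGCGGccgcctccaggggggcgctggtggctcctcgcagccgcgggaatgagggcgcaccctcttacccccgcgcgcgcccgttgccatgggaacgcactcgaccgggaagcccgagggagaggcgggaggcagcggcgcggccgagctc
Searched on both strands, GGGCGG occurred 1 time in this window, and 42.6% of all 35116 RefSeq windows of the same length hold it. The cyclic AMP response element TGACGTCA, the motif bound by ATF2, had 0 matches in this window and is held by 1.65% of all windows. The G+C content of this window was 68.0%. The window before the other CHN1 start (chr2:175005081-175005330) had 0 matches to GGGCGG, 0 to TGACGTCA and a G+C content of 74.0%.

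The 2 genes of the model stood on opposite sides of 0. In the authors' deposited table all 14 ATF2 bins had lower usage in each of the 4 knockdowns, beside a background of 23.9% of all bins that were lower in all 4. Of the 21 CHN1 bins, 19 had higher usage in all 4 in the authors' deposited table, beside a background of 16.7% of all bins. The remaining CHN1 bins, 47 and 48, were higher in both HNRNPG knockdowns and in METTL14 knockdown, and lower in METTL3 knockdown. Together 33 of the 35 bins stood on one side in all 4, where 40.6% of all bins did. The model was chosen from these values, so nothing is read from these shares. The opposite sides are also not separate findings. Each bin is scaled to the whole joined model, so lower values in ATF2 go with higher values in CHN1. Weighted by bin length, the mean over the model was close to 0, at 0.004 (KD1), 0.002 (KD2), -0.007 (METTL3) and 0.015 (METTL14).

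**Figure D1:**
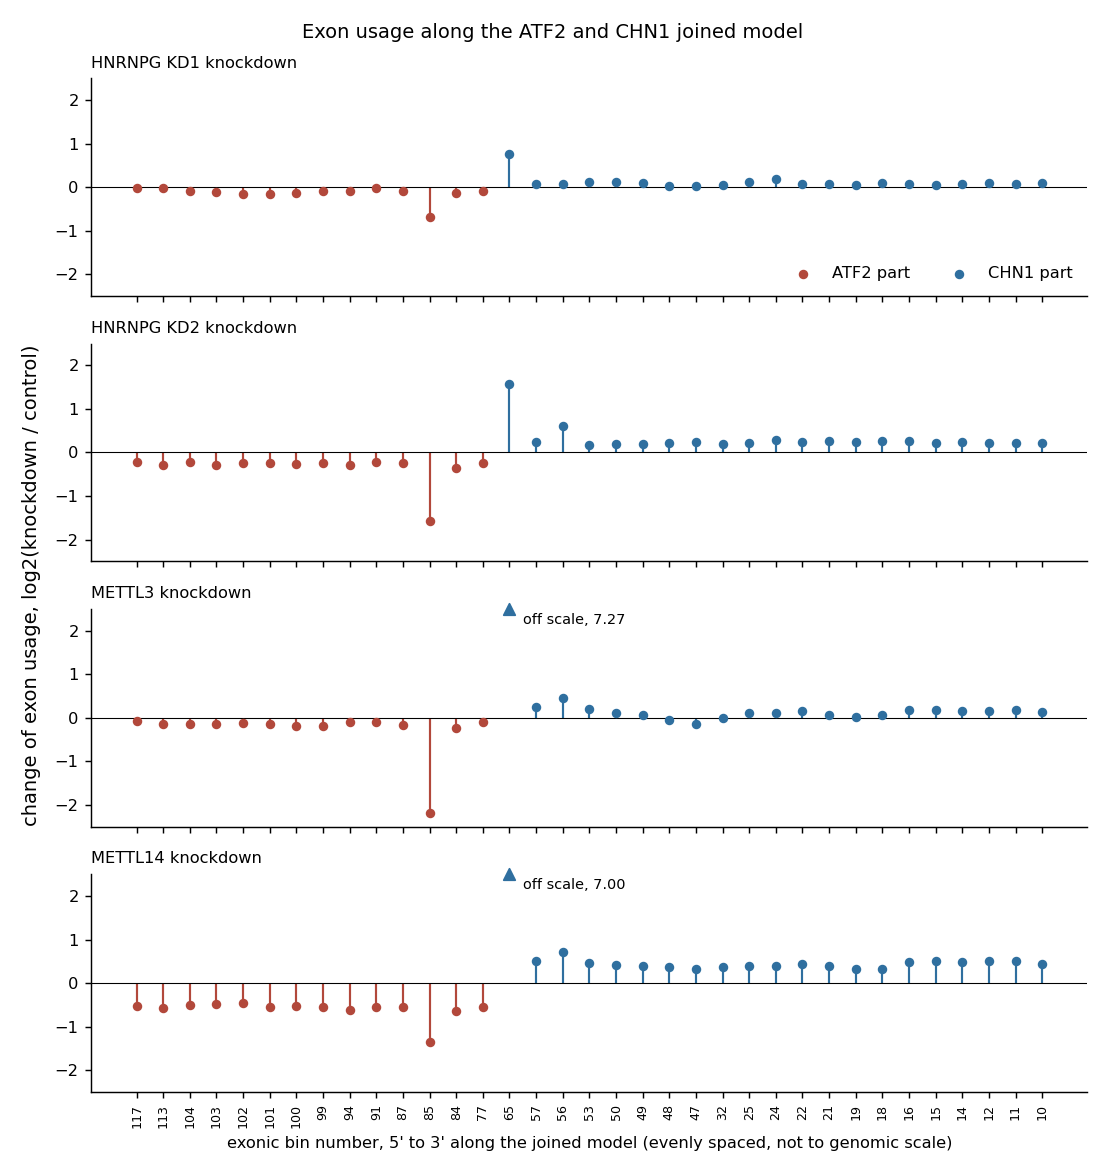
Change of exon usage, log2 of knockdown over control, for the 35 listed bins in order from the 5′ end (left) to the 3′ end (right), with 1 panel per knockdown, ATF2 bins in red and CHN1 bins in blue; triangles mark bin 65, off scale at 7.27 (METTL3) and 7.00 (METTL14). ATF2 bins lie below 0 in every panel, and CHN1 bins lie above 0 except bins 47 and 48 in METTL3 knockdown.

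METTL14 knockdown had the widest distance between the 2 genes. In the authors' deposited table its ATF2 bins ran from -1.36 to -0.45 with a median of -0.55, a usage 0.685 times that of the control. Its CHN1 bins ran from 0.33 to 7.00 in the authors' deposited table, with a median of 0.44, a usage 1.35 times that of the control. The medians were 0.98 apart on the log2 scale, with ATF2 lower (difference -0.98), and the highest ATF2 bin lay 0.78 below the lowest CHN1 bin. Among all bins, 56.2% were lower and 43.4% higher in METTL14 knockdown, with a median of -0.04.

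HNRNPG KD2 came next in the distance between the genes. Its ATF2 bins ran from -1.57 to -0.21 with a median of -0.25 in the authors' deposited table, and its CHN1 bins from 0.17 to 1.57 with a median of 0.23. The difference of medians was -0.48, and the ranges did not overlap. In KD2, 56.8% of all bins were lower and 43.1% higher. METTL3 knockdown had a difference of medians of -0.28, from -0.14 for ATF2 (range -2.20 to -0.07) and 0.13 for CHN1 (range -0.14 to 7.27) in the authors' deposited table. It was the one knockdown in which the ranges of ATF2 and CHN1 bins overlapped, through CHN1 bin 47, and 53.4% of all its bins were lower and 46.6% higher. HNRNPG KD1 had the smallest difference of medians, -0.17, from -0.10 for ATF2 (range -0.69 to -0.01) and 0.08 for CHN1 (range 0.02 to 0.77) in the authors' deposited table. Its nearest ATF2 and CHN1 bins were 0.03 apart, and 54.0% of all its bins were lower and 45.8% higher. These distances are values of single comparisons with no error, and the order of the knockdowns was not tested.

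**Figure D2:**
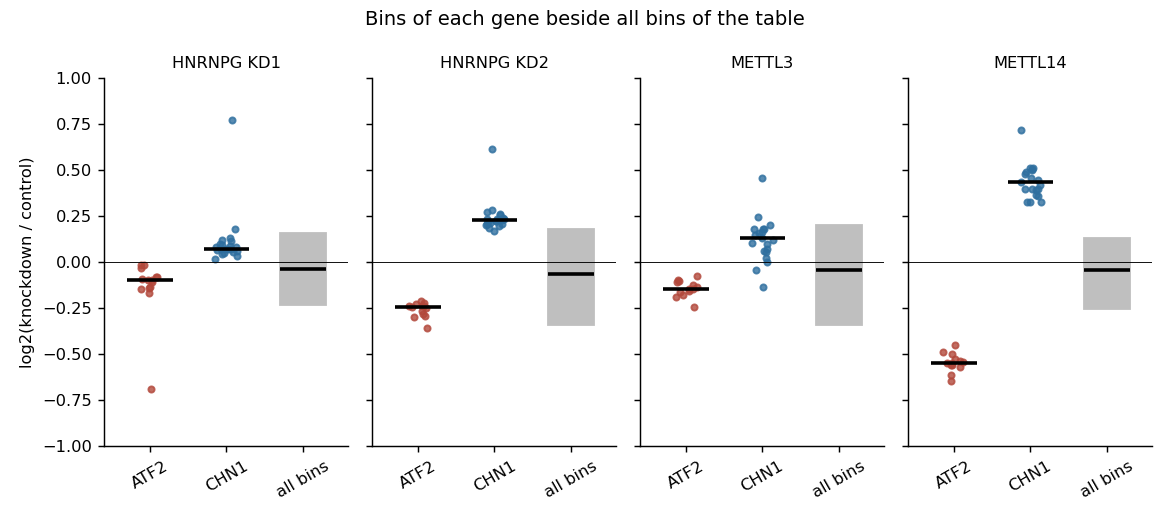
Change of exon usage, log2 of knockdown over control, for ATF2 bins (red points), CHN1 bins (blue points) and all 2635 bins (grey box from the lower to the upper quartile); black lines are medians, horizontal scatter is for display, and values beyond 1 in size (bins 65 and 85) are not drawn. Points of a gene form narrow bands, with medians of -0.55 and 0.44 for ATF2 and CHN1 in METTL14 knockdown and of -0.10 and 0.08 in KD1.

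In METTL14 knockdown 17 of the 35 bins reached a size of 0.5 (16.0% of all bins), 11 of them in ATF2 and 6 in CHN1, by the authors' deposited table. Bins of that size numbered 3 in KD2 (21.7% of all bins), 2 in METTL3 knockdown (22.4%) and 2 in KD1 (15.0%). The median size of change in the model, without regard to sign, was 0.50 in METTL14 knockdown, the seventh largest of the 62 models with at least 10 bins, over which the median was 0.19. In KD2 it was 0.24 (rank 33), in METTL3 knockdown 0.14 (rank 42) and in KD1 0.09 (rank 53). When each value was set against the median of its own gene, a step chosen after the data were seen, 2 of the 35 bins kept a size of 0.5 in each of the 4 knockdowns. They were ATF2 bin 85 and CHN1 bin 65. The centring was not done for the other models, so no share over all bins stands beside this count. The other 33 bins lay at most 0.10 from their gene's median under KD1, 0.39 under KD2, 0.32 under METTL3 and 0.28 under METTL14 knockdown.

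Within ATF2, the transcription factor gene, bin 85 stood apart from the other 13 bins. Exon bin 85 (chr2:175945494-175945561, 68 bp) had -0.69 under KD1, -1.57 under KD2, -2.20 under METTL3 and -1.36 under METTL14 knockdown in the authors' deposited table. It was the lowest bin of the model in every knockdown, and among all 2635 bins its rank from the lowest was 128 under KD1, 32 under KD2, 12 under METTL3 and 22 under METTL14 knockdown. Its differences from the ATF2 median were -0.59, -1.33, -2.05 and -0.81 in that order. Of all bins, 2.31% reached a size of 1 under KD1, 3.95% under KD2, 5.73% under METTL3 and 2.58% under METTL14 knockdown. Bin 85 did not reach 1 in KD1, where 15.0% of all bins reached 0.5.

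Bin 85 adjoins bin 84 with no gap, and on the minus strand it is the 5′ piece of this stretch of exon. Exon bin 84 (chr2:175945388-175945493, 106 bp) had -0.14, -0.36, -0.24 and -0.64 under KD1, KD2, METTL3 and METTL14 knockdown in the authors' deposited table. Bin 85 minus bin 84 came to -0.55, -1.21, -1.96 and -0.72 in that order. The table has 778 such pairs of adjoining bins in 266 models, with a median size of difference of 0.04 to 0.05. The step from bin 84 to bin 85 lay at the 97.2, 98.8, 99.5 and 98.6 percentile of them under KD1, KD2, METTL3 and METTL14 knockdown. This comparison was added after bin 85 was seen to be the lowest of the model. A large step was therefore likely by selection, and nothing is read from these percentiles. Among the other 11 adjoining pairs of the model the largest step was 0.08 under KD1, 0.06 under KD2, 0.12 under METTL3 and 0.10 under METTL14 knockdown. The step is a difference between 2 bins of 1 gene, and it had the same direction in each knockdown. KD1 and KD2 share their control libraries, as do METTL3 and METTL14 knockdown, so these directions are not all independent of each other.

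**Figure D3:**
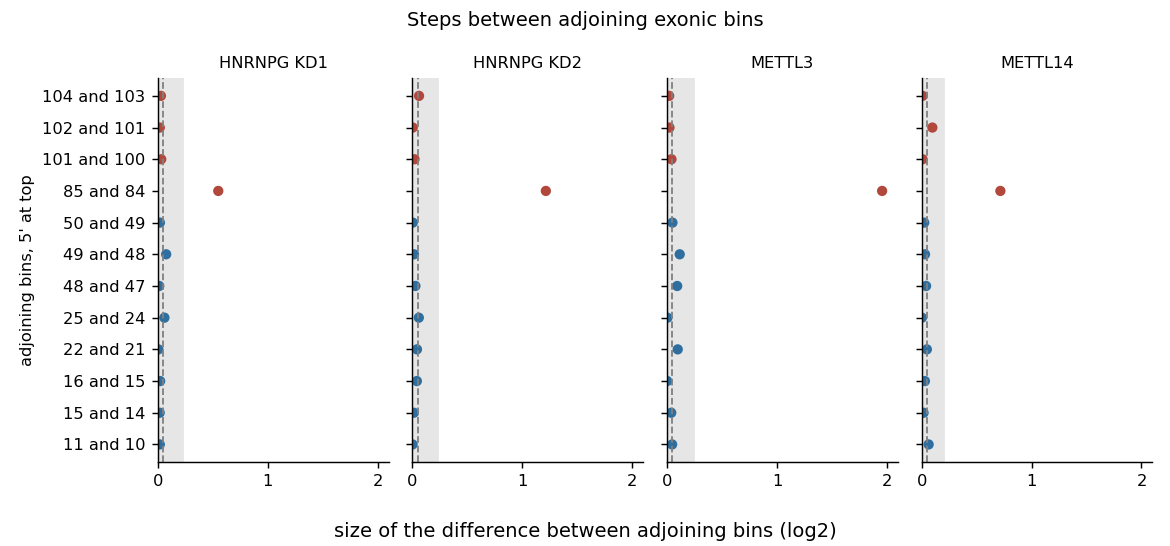
Size of the log2 difference in usage change between adjoining exonic bins (x axis) for the 12 adjoining pairs of the model from 5′ (top) to 3′ (bottom), ATF2 pairs in red and CHN1 pairs in blue, with 1 panel per knockdown; the dashed line is the median and the grey band reaches the 90th percentile of all 778 adjoining pairs of the table. The pair of bins 85 and 84 lies outside the band in each panel, at 0.55, 1.21, 1.96 and 0.72, and the other 11 pairs lie inside it. The comparison was added after bin 85 was seen to be the lowest of the model.

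The other 13 listed ATF2 bins formed a narrow band, from bin 117 to bin 77. Only 14 bins with numbers 77 to 117 were listed, and the unlisted ones have no value here. In the authors' deposited table they lay between -0.17 and -0.01 in KD1, between -0.36 and -0.21 in KD2, between -0.24 and -0.07 in METTL3 and between -0.64 and -0.45 in METTL14 knockdown. The most upstream ATF2 bin, 117 (chr2:176032778-176032852), had -0.01, -0.21, -0.07 and -0.52 under KD1, KD2, METTL3 and METTL14 knockdown in the authors' deposited table. The longest ATF2 bin, 77 (chr2:175939233-175939563, 331 bp), is the most downstream one listed. It had -0.10, -0.24, -0.10 and -0.56 in the same order by the authors' deposited table. The most upstream and most downstream listed ATF2 bins thus carried METTL14 values close to the ATF2 median of -0.55. Bin 117 was the highest ATF2 bin in KD1, KD2 and METTL3 knockdown, where it lay 0.08, 0.03 and 0.07 above the ATF2 median.

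After bin 85 the lowest ATF2 bins differed between knockdowns. In KD1 they were bins 101 and 102, with -0.17 and -0.15 by the authors' deposited table, and -0.25 and -0.24 (KD2), -0.15 and -0.12 (METTL3) and -0.55 and -0.45 (METTL14). These bins belong to a run of adjoining bins 100 to 102 (chr2:175982718-175982846), and bin 100 had -0.13 under KD1, -0.27 under KD2, -0.19 under METTL3 and -0.54 under METTL14 knockdown in the authors' deposited table. In KD2 they were bins 84 and 113, the second of them (chr2:176015788-176015886) with -0.02 (KD1), -0.30 (KD2), -0.14 (METTL3) and -0.57 (METTL14) by the authors' deposited table. In METTL3 knockdown they were bins 84 and 100, and in METTL14 knockdown bins 84 and 94. Bin 94 (chr2:175976323-175976382) had -0.08 under KD1, -0.29 under KD2, -0.11 under METTL3 and -0.61 under METTL14 knockdown in the authors' deposited table. Bin 84 was in the lowest 3 in 3 of the 4 knockdowns, and the other bins named here lay at most 0.10 from the ATF2 median.

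Within CHN1, the Rac GTPase-activating protein gene, the most upstream listed bin stood far above the rest. Exon bin 65 (chr2:175869947-175869955) is 9 bp long and had 0.77 under KD1, 1.57 under KD2, 7.27 under METTL3 and 7.00 under METTL14 knockdown in the authors' deposited table. Its METTL3 and METTL14 values were the highest of all 2635 bins, its KD2 value was the fourth highest and its KD1 value the 53rd highest. Both METTL comparisons use the same control libraries, so these 2 values are not independent of each other. No listed bin adjoins bin 65, and with no counts used here the reads behind a 9 bp bin are unknown.

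Bin 56 (chr2:175805544-175805622, 79 bp) was the next highest CHN1 bin in 3 knockdowns, with 0.62 in KD2, 0.46 in METTL3 and 0.72 in METTL14 knockdown in the authors' deposited table. In KD1 it had 0.07 in the authors' deposited table, close to the CHN1 median of 0.08. Its difference from the CHN1 median was 0.39 in KD2, 0.32 in METTL3 and 0.28 in METTL14 knockdown. KD1 and KD2, knockdowns of the same gene against the same controls, thus differed at this bin by more than at the other bins outside 65 and 85. Bin 57, just upstream of it in the listed order (chr2:175809616-175809671), had 0.06, 0.23, 0.25 and 0.51 under KD1, KD2, METTL3 and METTL14 knockdown in the authors' deposited table. Its METTL14 value was tied with that of bin 12 (chr2:175666435-175666540), toward the 3′ end of CHN1. Bin 12 had 0.09, 0.22, 0.17 and 0.51 in the same order by the authors' deposited table. In KD1 the next highest bins after 65 were instead 24 and 53, with 0.18 and 0.13 by the authors' deposited table. Bin 53 (chr2:175779786-175779899) had 0.17 (KD2), 0.20 (METTL3) and 0.46 (METTL14) by the authors' deposited table. Bin 24 (chr2:175689162-175689177, 16 bp) had 0.29 in KD2, the third highest of the model there, and 0.10 and 0.40 in METTL3 and METTL14 knockdown in the authors' deposited table.

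The METTL values of CHN1 varied along the gene in 3 stretches, which were marked off after the values were seen. METTL3 and METTL14 knockdown share their control libraries, so their courses along the gene are not independent of each other. The 4 bins at the 5′ side (53 to 65) had 0.20 to 7.27 in METTL3 and 0.46 to 7.00 in METTL14 knockdown in the authors' deposited table. The 11 bins of the middle (18 to 50) had -0.14 to 0.16 in METTL3 knockdown and 0.33 to 0.45 in METTL14 knockdown in the authors' deposited table. The 6 bins at the 3′ end (10 to 16) had 0.13 to 0.18 in METTL3 and 0.44 to 0.51 in METTL14 knockdown in the authors' deposited table. The middle and 3′ ranges overlapped slightly in both. The 5′ and 3′ ranges overlapped in METTL14 knockdown, where bins 57 and 53 (0.51 and 0.46) lay within the 3′ range. The 5′, middle and 3′ medians were 0.35, 0.06 and 0.17 in METTL3 and 0.62, 0.40 and 0.50 in METTL14 knockdown. The 5′ medians, over 4 bins, include the high bins 65 and 56, and bins 57 and 53 had 0.25 and 0.20 in METTL3 knockdown. In the HNRNPG knockdowns the 5′, middle and 3′ medians were 0.10, 0.08 and 0.08 in KD1 and 0.42, 0.23 and 0.22 in KD2. The 5′ stretch of KD2 ran from 0.17 to 1.57 in the authors' deposited table, with 0.23 at bin 57 and 0.17 at bin 53.

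The middle stretch holds a run of 4 adjoining bins, 47 to 50 (chr2:175742568-175742856), of which bin 47 had the lowest METTL3 and METTL14 values of CHN1 and bin 50 the second highest of the 11 middle bins. From its 5′ side, bins 50, 49, 48 and 47 had 0.12, 0.07, -0.04 and -0.14 in METTL3 knockdown in the authors' deposited table. In METTL14 knockdown the same 4 bins had 0.42, 0.40, 0.37 and 0.33, and in KD2 they had 0.20, 0.20, 0.21 and 0.24 in the authors' deposited table. The METTL values were lower toward the 3′ side of this stretch and those of KD2 were not, and each single step between adjoining bins was at most 0.12 in size. In KD1 the 4 bins had 0.11, 0.10, 0.02 and 0.03 in the authors' deposited table, so KD1 values were also lower toward the 3′ side. The shared controls of METTL3 and METTL14 knockdown apply to this run as well.

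**Figure D4:**
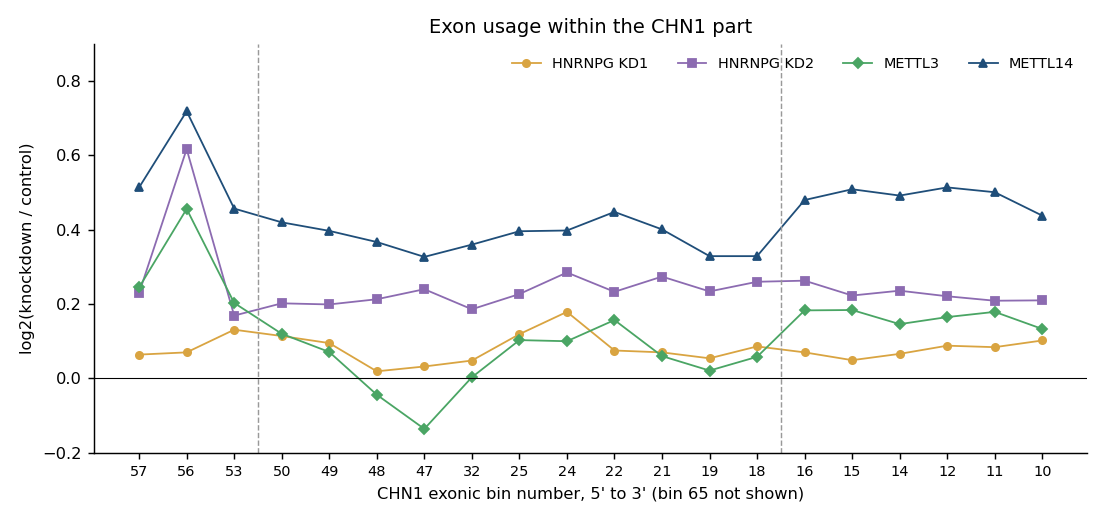
Change of exon usage, log2 of knockdown over control, for 20 CHN1 bins from the 5′ end (left) to the 3′ end (right), with 1 line per knockdown; bin 65 is left out and dashed lines part the 5′, middle and 3′ stretches. The METTL14 line is the highest at every bin, and both METTL lines dip in the middle stretch, to -0.14 (METTL3) and 0.33 (METTL14) at bin 47. The METTL lines share their control libraries.

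The 4 m6A sites that the table lists for the joined model all lie within the CHN1 stretch, at chromosome 2 positions 175664932, 175664975, 175799725 and 175840129 on the minus strand. The first 2 lie in adjoining bins at the 3′ end of CHN1, 1 in bin 10 and 1 in bin 11, and the others lie in no listed bin. Bin 10 (chr2:175664290-175664973), at 684 bp the longest of the model, had 0.10, 0.21, 0.13 and 0.44 under KD1, KD2, METTL3 and METTL14 knockdown in the authors' deposited table. Bin 11 (chr2:175664974-175665015) had 0.08, 0.21, 0.18 and 0.50 in the same order by the authors' deposited table. Both bins lay at most 0.06 from the CHN1 median in each knockdown. ATF2 bins lay 99.1 to 193 kb from the nearest listed site, and CHN1 bins 0 to 57.1 kb. Bin 85 and bin 65, the bins farthest from the median of their gene, held no listed site.

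Across bins of one gene, HNRNPG and METTL values, which had separate controls, were compared as a description. Over the 13 ATF2 bins other than bin 85, Spearman's rank correlation was 0.47 between KD2 and METTL14, 0.41 between KD2 and METTL3, 0.46 between KD1 and METTL3 and -0.09 between KD1 and METTL14. Pearson's r for these pairs was 0.61, 0.61, 0.52 and -0.06 in the same order. Over the 20 CHN1 bins other than bin 65, the rank correlation was 0.003 between KD2 and METTL3 and 0.02 between KD2 and METTL14, where Pearson's r was 0.60 and 0.65. Without bin 56 as well, left out after the values were seen, Pearson's r of these pairs was -0.10 and -0.14 over 19 bins. Between KD1 and METTL3 the rank correlation over the 20 bins was 0.26 and r was 0.26, and between KD1 and METTL14 they were 0.12 and 0.04. The bins of a gene share their libraries and adjoining bins share reads, and without bins 65 and 85 the values cover narrow ranges.

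Among the 62 models with at least 10 bins, a split by position was sought that put the bins on opposite sides of 0 in all 4 knockdowns. For the ATF2 and CHN1 model the best split fell at the stretch between the 2 genes, with 33 of 35 bins (94.3%) on their side. At least 90% of bins were on their side in 9 of the 62 models, 4 of 34 joined models and 5 of 28 single-gene models. A pattern of this kind was therefore present in models of 1 gene as well. In every model, joined or not, the split was picked from the values and not from gene boundaries. Joined models with every bin on its side were COQ4andSLC27A4, GALTandIL11RA and IER3IP1andHDHD2. The mean difference between the medians of the 2 sides was 0.48 in the ATF2 and CHN1 model, against 0.66, 0.90 and 0.48 in those 3 models.

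By the median over its bins, the ATF2 and CHN1 model had 0.05, 0.20, 0.02 and 0.36 under KD1, KD2, METTL3 and METTL14 knockdown. These medians reflect the larger number of CHN1 bins. The models nearest to it by root mean square difference over the 4 knockdowns were CRAMP1LandHN1L (0.09), C14orf153andKLC1 (0.11) and C18orf10 (0.11), where the median over the other 61 models was 0.30. CRAMP1LandHN1L had 0.10, 0.26, -0.13 and 0.33 in the same order. The search for splits found none in CRAMP1LandHN1L or C14orf153andKLC1, and put 8 of 14 bins on their side in C18orf10. The nearness is thus one of whole-model medians and not of the opposite sides of ATF2 and CHN1.

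Few other genes of the pathways around ATF2 were in the table. Usage is relative within a model, so a median over its listed bins does not give a change in the RNA level of a gene. Of 39 ATF, CREB and AP-1 factors 3 were listed outside the joined model, each in a model of its own, with 3 medians higher and 0 lower under KD1, 2 and 1 under KD2, 0 and 3 under METTL3 and 1 and 2 under METTL14 knockdown. ATF6, a factor of the unfolded protein response, had 0.31, 0.37, -0.33 and -0.07 under KD1, KD2, METTL3 and METTL14 knockdown. NFE2L2, the regulator of the antioxidant response, had 0.34, 0.28, -0.34 and 0.13 in that order. CREBZF had 0.04, -0.05, -0.03 and -0.25. ATF6 had 5 listed bins, NFE2L2 20 and CREBZF 1. Of 32 stress kinases and other genes around ATF2, 4 were listed, with 2 medians higher and 2 lower in KD1, 1 and 3 in KD2, 1 and 3 in METTL3, and 0 and 4 in METTL14 knockdown. MAPK9, a JNK kinase, had -0.12, -0.04, -0.13 and -0.13, and TAOK2, which acts upstream in the same kinase cascades, had -0.18, -0.26, -0.32 and -0.23. KAT5, an acetyltransferase, had 0.04, 0.19, -0.26 and -0.27, and MAP3K7, the kinase TAK1, had 0.16, -0.19, 0.47 and -0.31. MAPK9 had 13 listed bins, TAOK2 and MAP3K7 2 each and KAT5 1, so these are exon usage values of few bins in all but MAPK9. By the search for splits 11 of the 13 MAPK9 bins were on their side. The mean difference between the medians of its 2 sides was 0.63. Over all models 57.2% of medians were lower under KD1, 59.3% under KD2, 55.0% under METTL3 and 58.3% under METTL14 knockdown.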

How the data were processed

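The table holds the authors' comparisons of exon usage per exonic bin as log2 ratios of control over knockdown, per the file headers. The sample descriptions name DEXSeq, with no version. The submitters' processing notes name hg19, Trimmomatic, Bowtie 1.0.0, TopHat 1.1.4, Cufflinks and Cuffdiff, with no role or order. The rule by which a bin entered the table is not stated in the labels or headers. RNA-seq libraries were stranded mRNA libraries, per the labels' protocols.

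The sign of each log2 value was turned. Bins were assigned to ATF2 if they started at or above chromosome 2 position 175900000 and to CHN1 if they ended below it. Members, lists and comparisons were chosen with earlier results of these data known. Bins named with their values were those of size 1 or more, the 3 highest and 3 lowest in each knockdown and the longest bin of each gene. The comparison of adjoining bins, the bins at m6A sites and the outermost listed ATF2 bins were added after the values were seen. So were the stretches of CHN1, the search for splits and the centring on each gene's median. Models with at least 10 bins were compared with the joined model, and lists took models by gene symbol; the list of genes around CHN1 is not reported here. Counts, medians and ranges were computed with no test, since no value per library was used, and the search for splits was tested on simulated data. Python 3.11.15, numpy 2.4.6, pandas 2.3.3, scipy 1.17.1 and matplotlib 3.10.9 were used.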

Additional observations from a re-analysis of the deposited data

How the results depend on the processing

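No paired analysis was possible because the table holds 1 value per comparison and no value per library, and for the same reason no library could be left out. The medians of ATF2 and of CHN1 and their difference kept their sign in all 4 knockdowns under each alternative run for them: bins of at least 20 bp, length-weighted means, bins over 5 in size left out, and bins 65 and 85 left out (the last chosen after seeing the data). The ATF2 median in METTL3 knockdown moved to -0.24 as a length-weighted mean. The median over the whole model, which mixes the 2 genes, moved to 0.004 (KD1), 0.002 (KD2) and 0.015 (METTL14) as a length-weighted mean, turned to -0.007 in METTL3 knockdown, and was 0.012 there with bins of at least 20 bp or without bins over 5 in size. Bins on one side in all 4 knockdowns numbered 27 of 28 at a length of at least 20 bp. At a size of at least 0.5, ATF2 bins lower numbered 1 in KD1, KD2 and METTL3 and 11 in METTL14, and CHN1 bins higher numbered 1 (KD1), 2 (KD2), 1 (METTL3) and 6 (METTL14). At a size of at least 1 these were 0 for both genes in KD1 and 1 for both in each other knockdown, and CHN1 bins lower in METTL3 knockdown numbered 0 at either size. In either direction, 15.0% (KD1), 21.7% (KD2), 22.4% (METTL3) and 16.0% (METTL14) of all bins reached 0.5. Shares of all bins by direction at these sizes were not computed. Centred on the median of their own gene, 2 bins reached 0.5 in METTL14 knockdown in place of 17. Depth is unknown, so the precision of the 7 bins under 20 bp, bin 65 among them, cannot be given.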
